A study of Mus musculus with 4 samples.

Results

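The renin-angiotensin system genes described here are 9 genes taken by name from the 54078 features of the deposited table, namely Agt, Ren1, Ace, Cma1, Enpep, Anpep, Agtr1a, Agtr1b and Mas1. All 9 were found once each. Their mRNA was measured by RNA-sequencing in whole injured kidneys of male adult mice at day 3 after 30 min of bilateral ischemia-reperfusion (I/R), in which both renal pedicles are clamped and then released. WT mice were Apela flox/flox littermates without Cre, and KO mice were Apela flox/flox mice carrying Ksp-Cre, so both groups held the floxed allele. The Ksp-cadherin promoter drives Cre in renal tubular epithelial cells, and Apela encodes the peptide elabela. Each group had 2 libraries, WT replicates 1 and 2 and KO replicates 1 and 2, and each library was a pool of RNA from 3 mice, so n = 2 counts pools. The labels give the strain as C57BL/6 x 129S4/SvJae, whereas the study's methods give a C57BL/6 background. Uninjured kidneys were not analysed here, so the levels are those of injured kidneys alone.

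Angiotensinogen, the product of Agt, is cut by renin to angiotensin I, and angiotensin-converting enzyme, the product of Ace, turns that into angiotensin II. Some chymases, the enzyme family of the product of Cma1, can do so as well. Aminopeptidase A (Enpep) and aminopeptidase N (Anpep) then shorten angiotensin II from its N-terminal end. Angiotensin II acts on type 1 receptors, of which mice have a pair encoded by Agtr1a and Agtr1b, to constrict vessels and retain sodium, while the shorter angiotensin-(1-7) acts on the receptor encoded by Mas1. In the kidney, renin is made by juxtaglomerular cells of the afferent arteriole, and angiotensinogen and the membrane peptidases are made largely by proximal tubule cells.

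The libraries held between 16045724 and 16927742 reads on genes, recovered from the FPKM and the gene lengths. Of these reads 5.20% to 6.45% were mitochondrial. The targeted gene, Apela, gave 5.27 and 4.57 FPKM in WT replicates 1 and 2, against 0.536 and 0.245 FPKM in KO replicates 1 and 2, so both KO pools were lower. Kidney markers such as Umod, Aqp2 and Slc12a1 were present in every pool, with a summed FPKM of the 4 listed kidney genes from 1015 to 1574. The series text names adipose tissue as the source, but the summed FPKM of 5 adipose markers came to 1.43 and 0.312 for WT replicates 1 and 2, against 8.27 and 3.19 for KO replicates 1 and 2, nearly all of it from the lipid droplet gene Cidec. Adipoq, which defines fat cells, was at 0 in 3 pools and at 6 reads in KO replicate 2. WT replicate 2 stood apart from the other pools in 6 macrophage markers, whose summed FPKM was 406 there and 161 to 204 in the other 3 pools. In RNA from whole kidney, fewer cells of a type and less mRNA per cell cannot be told apart.

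The part of Agt that encodes angiotensin I is given here to place the hormone in the transcript that was counted. It lies in exon 2 of 5 on the minus strand, at chr8:124564450-124564479 of GRCm38, and its 10 codons are in capitals between 15 coding bases on each side, read from the GENCODE transcript.
Agt: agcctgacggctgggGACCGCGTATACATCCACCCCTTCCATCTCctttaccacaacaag

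The pair of type 1 receptor genes has 1077 coding bases each and was identical at 978 of them (90.8%). The first 90 coding bases are shown as an example of how the genes differ, with the 8 differing bases of this stretch in capitals. Agtr1a lies on the plus strand at chr13:30380954-30381043 and Agtr1b on the minus strand at chr3:20316351-20316440 of GRCm38.
Agtr1a: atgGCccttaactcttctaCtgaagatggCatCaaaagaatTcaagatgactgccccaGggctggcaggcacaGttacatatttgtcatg
Agtr1b: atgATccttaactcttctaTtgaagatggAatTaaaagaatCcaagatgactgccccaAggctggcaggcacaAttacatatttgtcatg

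The longest run without a difference between the coding parts was 66 bases. Of the 2922 distinct windows of 50 bases in Agtr1a transcripts, 37 (1.27%) were found in a transcript of another gene, on either strand, while of the 3071 windows of 100 bases 0 were. For Agtr1b, 33 of 2136 windows were shared at 50 bases, against 0 at 100 bases. Ren1, Agt, Enpep, Anpep and Mas1 shared 0 windows of 50 bases with a transcript of another gene, whereas Ace shared 201 of 5329 with its antisense gene Gm11651 and Cma1 56 of 1041 with the pseudogene Gm48934.

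Promoters of Ren1 and Agt are shown because these were the most abundant members on average over the pools and those with the widest range. Each holds the 250 bases before and the 50 bases from the start site, from RefSeq on GRCm38.p6, for Ren1 on the plus strand at chr1:133350424-133350723 and for Agt on the minus strand at chr8:124569657-124569956, with the motif TATAAA in capitals.
Ren1: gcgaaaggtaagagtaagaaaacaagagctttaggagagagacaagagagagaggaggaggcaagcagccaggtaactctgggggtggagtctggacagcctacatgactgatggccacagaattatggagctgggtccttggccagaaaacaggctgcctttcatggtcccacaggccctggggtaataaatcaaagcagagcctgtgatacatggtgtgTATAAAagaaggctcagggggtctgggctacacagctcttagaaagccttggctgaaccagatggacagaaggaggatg
Agt: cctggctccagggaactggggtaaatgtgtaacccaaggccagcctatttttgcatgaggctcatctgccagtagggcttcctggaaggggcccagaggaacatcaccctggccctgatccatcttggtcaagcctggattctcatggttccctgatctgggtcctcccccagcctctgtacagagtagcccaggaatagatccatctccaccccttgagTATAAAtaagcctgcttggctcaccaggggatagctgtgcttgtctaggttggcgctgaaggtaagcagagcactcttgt

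In both promoters the motif was found once, with its first base 29 bases before the start in Ren1 and 30 bases before it in Agt. RefSeq promoters were matched for 8 of the 9 members, and TATAAA was found on either strand in those of Ren1, Agt, Ace, Agtr1b and Enpep, against 13.6% of the 32851 promoters in the table. On the gene's own strand and lying wholly within the stretch from 40 to 16 bases before the start it was found for Ren1, Agt and Agtr1b, against 1.99% of all promoters. The promoters of Anpep, Mas1 and Cma1 did not hold these letters.

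Over the 4 pools, the members spanned from abundant to absent. FPKM is scaled by gene length, so levels of different genes can be compared as far as the length used for a gene fits its transcripts, which was not tested. Averaged over the pools, FPKM was 67.7 for Agt, 51.3 for Ren1, 45.0 for Anpep, 29.3 for Enpep, 26.5 for Ace, 10.8 for Agtr1a, 0.595 for Mas1 and 0.00677 for Agtr1b, and Cma1 was at 0. The order of the neighbours Agt and Ren1 held in 3 of 4 pools, and so did that of Ren1 and Anpep, and the ranges of each pair overlapped, so neither pair of neighbours differed in level beyond its spread. Agt was above Anpep in 4 of 4 pools, with FPKM ratios of Anpep to Agt from 0.506 to 0.876. Anpep was above Enpep, and Enpep above Ace, in 4 of 4 pools, although the ranges of Enpep (24.5 to 32.6) and Ace (22.5 to 31.3) overlapped. Agtr1a was lower than Ace in 4 of 4 pools without overlap, and Mas1 was far lower than Agtr1a.

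**Figure D1:**
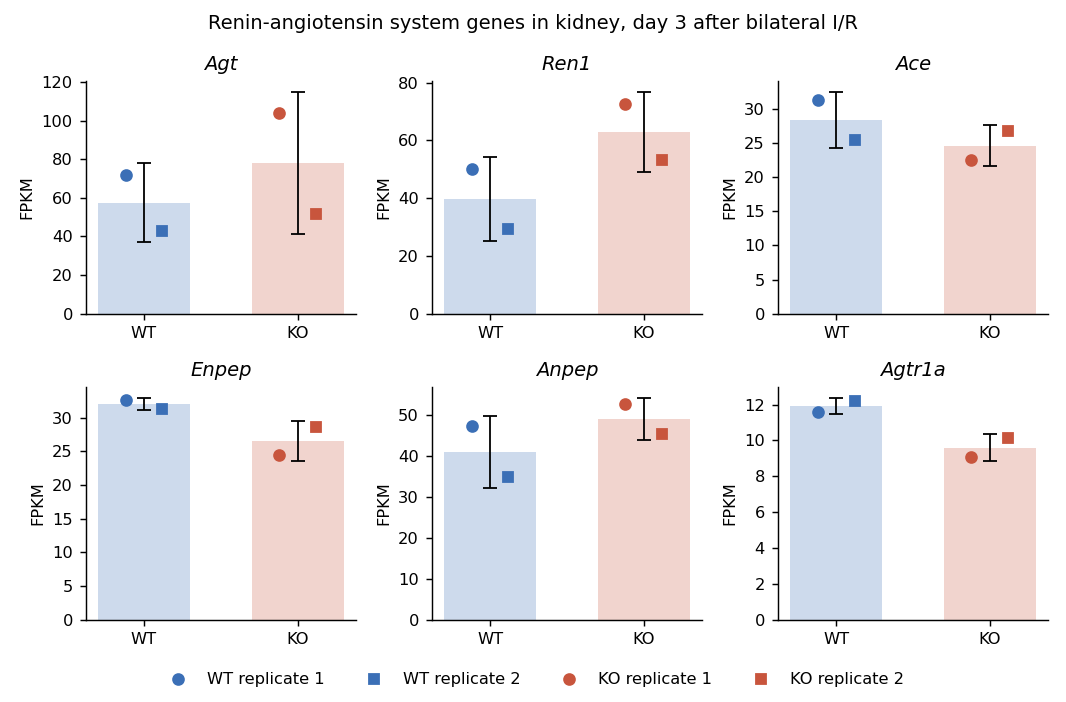
FPKM of the 6 most abundant renin-angiotensin system genes in WT and KO kidneys at day 3 after bilateral I/R, with 1 point per pool, bars at the group mean and error bars of 1 SD (n = 2 pools). Ren1 has both KO pools above both WT pools, Enpep and Agtr1a have both KO pools below both WT pools, and the pools of Agt, Ace and Anpep overlap.

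Expression was compared between KO and WT pools to find genes altered by the loss of tubular Apela in injured kidneys. Values were tested as log2(FPKM + 0.5) with limma over the 15414 genes whose mean over the pools reached 0.5 FPKM, which included 7 of the 9 members. Agtr1b and Cma1 were under that filter and were not tested. No member had a Benjamini-Hochberg adjusted p under 0.05, as was the case for all genes tested (0 of 15414, 0%, with a smallest adjusted p of 0.466, although 974 genes had an unadjusted p under 0.05), and 0 of the 7 members had an unadjusted p under 0.05, against 3.29% of all genes in the higher and 3.03% in the lower direction. That count of 0 members changed under some alternatives, with limma's unadjusted p for Ren1 at 0.0138 with a replicate block and 0.0150 without WT replicate 1, for Agtr1a at 0.0424 with no filter and for Enpep at 0.0489 with quantile normalization, while no adjusted p passed. The targeted gene Apela, at -2.62 log2 units, had an adjusted p of 0.466 by limma, the smallest of all genes tested. The test thus did not call even the gene that was knocked out, and the lack of a call does not show that a member was unchanged. The pools of the 2 groups did not overlap for 3 of the 7 members, against 37.8% of all genes tested. The KO pools lay above the WT pools for 1 of them, Ren1, against a background of 19.7%. They lay below for 2, Enpep and Agtr1a, against 18.1%. The median log2 fold change of the 7 members was 0.14, and that of all genes tested was 0.0071. With 2 pools a side, the smallest two-sided p of an exact permutation test is 0.333, which is why each pool's value is given. The pools held different mice, and the p-values measure the spread between pools, not between single mice.

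**Figure D2:**
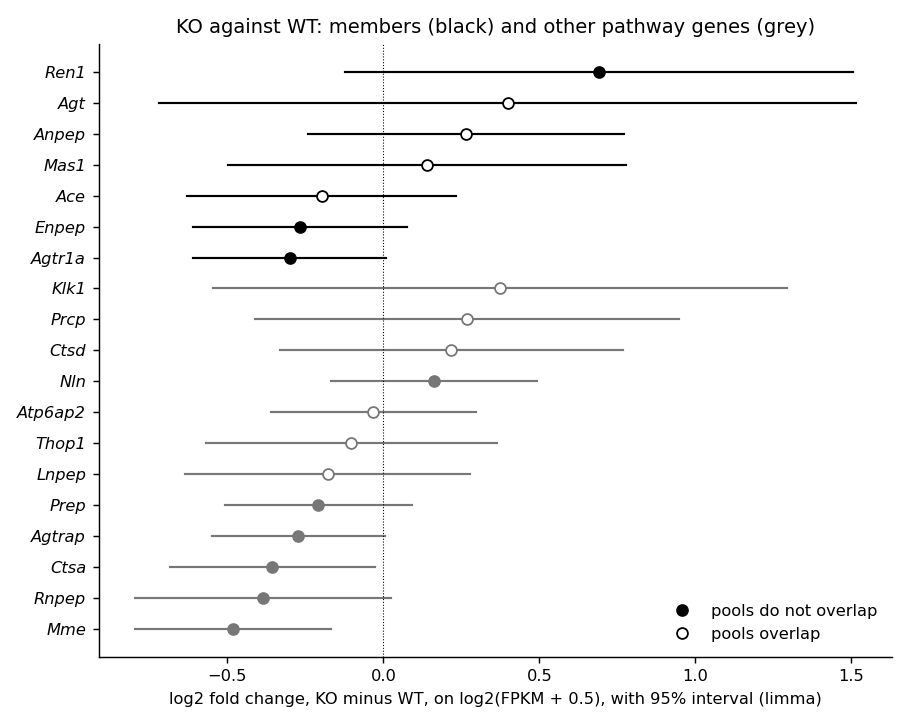
Log2 fold change (KO minus WT, on the log2(FPKM + 0.5) scale) with its 95% interval from limma for the 7 tested members in black and the 12 tested other genes of the pathway in grey, with filled points where the pools do not overlap. The intervals of all 7 members include 0, and among the other genes those of Mme and Ctsa do not.

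Renin and its substrate were the most variable members, and both had their lowest level in WT replicate 2 and their highest in KO replicate 1. Ren1 (ENSMUSG00000070645), which encodes renin, the protease whose release limits the rate of the cascade, lies on the plus strand of chromosome 1 of GRCm38 from 133350510 to 133360325. For Ren1, WT replicates 1 and 2 gave 49.9 and 29.4 FPKM, against 72.7 and 53.2 FPKM for KO replicates 1 and 2. The KO pools thus lay above the WT pools without overlap, but KO replicate 2 was close to WT replicate 1. Group means were 39.7 ± 14.6 FPKM (SD, n = 2) for WT mice, against 62.9 ± 13.7 FPKM (SD, n = 2) for KO mice. KO minus WT came to 0.69 log2 units (standard error 0.31, 95% interval -0.12 to 1.51, adjusted p = 0.797 by limma with Benjamini-Hochberg adjustment, unadjusted p = 0.0797). This corresponds to a fold change of 1.62, with an interval from 0.919 to 2.84. The 1330 and 837 reads of the WT pools gave exact Poisson 95% intervals of 47.3 to 52.7 and 27.4 to 31.4 FPKM, so the pools of 1 group differed by more than the counting error, which is all that these intervals cover. This difference was 0.31 log2 units without WT replicate 2 and 0.47 without KO replicate 1, and 1.07 without WT replicate 1. The table holds 1 renin gene. Some mouse strains, unlike C57BL/6, carry an additional renin gene, Ren2, so reads from such a copy cannot be told apart from reads of Ren1 here.

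Agt (ENSMUSG00000031980) lies on the minus strand of chromosome 8 from 124556534 to 124569706. Averaged over the pools, its mRNA was the most abundant of the members, although Ren1 was above it in KO replicate 2. For Agt, WT replicates 1 and 2 gave 72.0 and 42.9 FPKM, against 103.9 and 51.8 FPKM for KO replicates 1 and 2. KO replicate 1 was the highest and KO replicate 2 lay between the WT pools, so the groups overlapped. Group means were 57.5 ± 20.6 FPKM (SD, n = 2) for WT mice, against 77.9 ± 36.9 FPKM (SD, n = 2) for KO mice. The KO pools differed from each other by 2.01 times, more than any other member did within a group. KO minus WT came to 0.40 log2 units (standard error 0.42, 95% interval -0.72 to 1.52, adjusted p = 0.876). Its direction rested on KO replicate 1, without which it was -0.10, and without WT replicate 2 it was 0.028. The FPKM ratio of Ren1 to Agt was 0.694 and 0.684 for WT, against 0.699 and 1.03 for KO replicates 1 and 2. The ratio was thus nearly the same in 3 pools and higher in KO replicate 2.

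Of the 4 markers of the S3 segment of the proximal tubule, in which Agt mRNA is known to be abundant, 0 had pools without overlap, against 37.8% of all genes tested, and their summed FPKM was 513 to 594 in the WT and 362 to 587 in the KO pools. Nearly all of that sum came from Acy3, and KO replicate 1, the pool with the highest Agt, was the lowest in it and in Slc7a13, whereas Cyp7b1 and Slc22a7 were lowest in WT replicate 2, the pool with the lowest Agt. The 4 kidney markers, of which Umod of the thick ascending limb holds the most, had the same order of pools as Agt, with summed FPKM of 1468 and 1015 in the WT and 1574 and 1182 in the KO pools. For Ren1, the 5 markers of juxtaglomerular and vascular smooth muscle cells had summed FPKM of 47.0 and 103.5 in the WT and 65.7 and 129.6 in the KO pools, nearly all from Acta2, with 0 of 4 tested genes without overlap, against 37.8% of all genes. Akr1b7, which marks renin cells, gave 1.31 and 0.953 FPKM in WT replicates 1 and 2, against 2.24 and 0.769 FPKM in KO replicates 1 and 2, so it was highest in KO replicate 1, as Ren1 was, but lowest in KO replicate 2. The part of these cell types in the levels of Ren1 and Agt was not tested.

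Among the enzymes that form angiotensin II, Ace (ENSMUSG00000020681; chromosome 11, 105967945 to 105989964, plus strand) was abundant and varied little. For Ace, WT replicates 1 and 2 gave 31.3 and 25.5 FPKM, against 22.5 and 26.8 FPKM for KO replicates 1 and 2. The groups overlapped, as KO replicate 2 was above WT replicate 2. Group means were 28.4 ± 4.10 FPKM (SD, n = 2) for WT mice, against 24.6 ± 3.05 FPKM (SD, n = 2) for KO mice, a KO minus WT difference of -0.20 log2 units (standard error 0.16, 95% interval -0.63 to 0.23, adjusted p = 0.846). RefSeq gives Ace an additional start at an inner site, the start of the isoform known from testis, and a level per gene does not separate the transcripts. An antisense gene that overlaps Ace, Gm11651, was at 0 reads in all 4 pools.

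Cma1 (ENSMUSG00000022225, chromosome 14, 55941451 to 55944675, minus strand), a chymase gene of mast cells, had 0 reads in all 4 pools. The floor taken for a count of 0, which is 3 reads, is an FPKM of 0.160 to 0.171 for this gene, and the exact two-sided Poisson 95% interval of 0 reads reached 0.197 to 0.211 FPKM. Mast cell markers were near the limit of detection as well, with a summed FPKM of 0.0410 to 0.124. Ms4a2 had 0 and 5 reads in the WT and 4 and 4 in the KO pools, and Cpa3 had at most 1 read. The other 4 of the 6 were at 0 in every pool, among them Tpsb2, Tpsab1 and Fcer1a. Mcpt4 and Ctsg, which encode proteases that can form angiotensin II, were also at 0 reads in every pool.

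Of the aminopeptidases that degrade angiotensin II, Enpep had pools that did not overlap and Anpep had pools that did. Enpep (ENSMUSG00000028024; chromosome 3, 129269175 to 129332720, minus strand), whose product converts angiotensin II to angiotensin III, gave 32.6 and 31.3 FPKM in WT replicates 1 and 2, against 24.5 and 28.7 FPKM in KO replicates 1 and 2. The groups did not overlap, and KO was the lower. Group means were 32.0 ± 0.907 FPKM (SD, n = 2) for WT mice, against 26.6 ± 3.00 FPKM (SD, n = 2) for KO mice, a KO minus WT difference of -0.27 log2 units (standard error 0.13, 95% interval -0.61 to 0.075, adjusted p = 0.797). Leaving out single pools gave -0.38 to -0.15 log2 units.

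Anpep (ENSMUSG00000039062; chromosome 7, 79821803 to 79861059, minus strand), whose product cleaves angiotensin III to angiotensin IV and is also known as CD13 on myeloid cells, gave 47.2 and 34.8 FPKM in WT replicates 1 and 2, against 52.6 and 45.4 FPKM in KO replicates 1 and 2. WT replicate 2 was the lowest and WT replicate 1 lay between the KO pools, so the groups overlapped. Group means were 41.0 ± 8.78 FPKM (SD, n = 2) for WT mice, against 49.0 ± 5.08 FPKM (SD, n = 2) for KO mice, a KO minus WT difference of 0.26 log2 units (standard error 0.19, 95% interval -0.24 to 0.77, adjusted p = 0.828), which was 0.047 log2 units without WT replicate 2. The FPKM ratio of Enpep to Anpep was 0.691 and 0.900 for WT, against 0.465 and 0.633 for KO replicates 1 and 2. Both KO pools had the lower ratio, which was looked at after the values were seen and was not tested. WT replicate 2, the pool with the highest sum of macrophage markers, had the lowest Anpep, and the part of these cells in its level was not tested.

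Enpep, Anpep and Ace all encode proteins of the proximal tubule brush border. Of 8 proximal tubule markers, 4 had both KO pools below both WT pools, namely Slc34a1, Lrp2, Slc5a2 and Slc5a12, against 18.1% of all genes tested, and 2, the transporter genes Slc22a6 and Slc13a3, had both above, against 19.7%. Their summed FPKM was 1708 and 1291 in the WT and 1067 and 1546 in the KO pools. KO replicate 1, with the lowest Enpep and Ace but the highest Anpep, had the lowest sum. Slc34a1 held the largest part of that sum, at 898 and 689 FPKM in the WT and 365 and 609 FPKM in the KO pools. Slc34a1, Lrp2, Slc5a2 and Slc5a12 were lowest in KO replicate 1, whereas Cubn, Slc22a6, Slc22a8 and Slc13a3 were lowest in WT replicate 2. The 6 endothelial markers, of cells that also carry ACE, had summed FPKM of 43.3 to 53.8 in WT and 49.5 to 63.3 in KO pools, with 2 of 5 tested genes, Kdr and Tek, higher in both KO pools, against 19.7% of all genes. Vwf, under the filter, had 0.337 and 0.362 FPKM in WT, against 0.268 and 0.291 FPKM in KO pools. The part of either cell type in the levels of the peptidases was not tested.

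**Figure D3:**
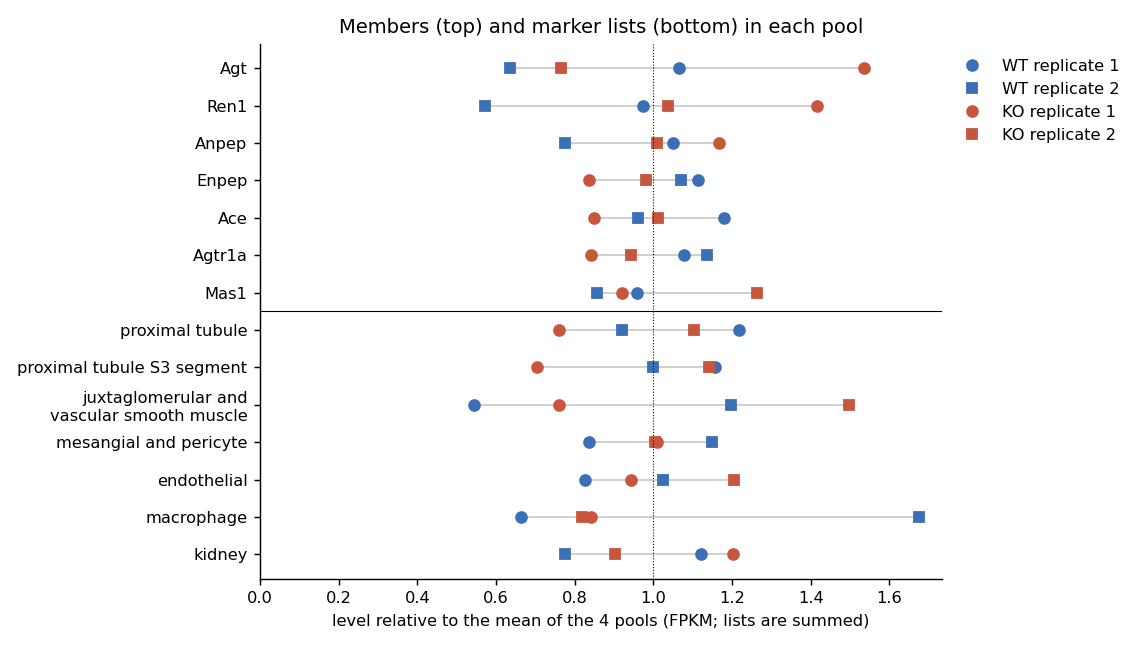
Level of each tested member (top) and summed FPKM of marker lists (bottom) in each pool, relative to the mean of the 4 pools, which is 1. Agt and Ren1 span the widest range among the members, from 0.634 and 0.572 in WT replicate 2 to 1.54 and 1.42 in KO replicate 1, and the macrophage markers reach 1.68 in WT replicate 2.

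Among the receptors, Agtr1a was the one expressed at more than a trace. Agtr1a (ENSMUSG00000049115; chromosome 13, 30336441 to 30382867, plus strand) gave 11.6 and 12.2 FPKM in WT replicates 1 and 2, against 9.06 and 10.1 FPKM in KO replicates 1 and 2. No KO pool reached the level of a WT pool. Group means were 11.9 ± 0.433 FPKM (SD, n = 2) for WT mice, against 9.60 ± 0.772 FPKM (SD, n = 2) for KO mice, a KO minus WT difference of -0.30 log2 units (standard error 0.12, 95% interval -0.61 to 0.0091, adjusted p = 0.785, unadjusted p = 0.0547). This is a fold change of 0.812, with an interval from 0.656 to 1.01. Its reads were 520 and 586 in the WT and 422 and 459 in the KO pools, and leaving out single pools gave -0.38 to -0.22 log2 units. Of 5 mesangial and pericyte markers, cells that carry this receptor, 2 had both KO pools below both WT pools, Rgs5 and Gata3, against 18.1% of all genes. The summed FPKM of the 5 was 34.4 to 47.2 in WT and 41.2 to 41.5 in KO pools, and their part in the level of Agtr1a was not tested.

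Agtr1b (ENSMUSG00000054988; chromosome 3, 20314473 to 20367177, minus strand) had 1 read in WT replicate 2 and 0 in the other 3 pools, and 3 reads would be an FPKM of 0.0812 to 0.0869. Its paralog Agtr1a was thus the source of nearly all type 1 receptor reads that the authors assigned. How the authors treated reads that fit both genes is not given in the sources used here. Adrenal cortex, a tissue in which Agtr1b is known to be expressed, left little trace, with Cyp11b2 at 0 and Cyp11a1 and Cyp11b1 at 2 reads or fewer in every pool. The summed FPKM of the 4 adrenal markers was 0.828 to 1.09, nearly all from Star. Agtr2, which encodes the type 2 receptor, had 2 reads in WT replicate 1 and 0 in the others.

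Mas1 (ENSMUSG00000068037; chromosome 17, 12841079 to 12868143, minus strand) was low but detected in every pool. WT replicates 1 and 2 had 24 and 23 reads, or 0.570 and 0.510 FPKM. KO replicates 1 and 2 had 24 and 32 reads, or 0.548 and 0.752 FPKM. KO replicate 2 was the highest and KO replicate 1 lay between the WT pools, and the Poisson 95% intervals of all 4 pools overlapped, from 0.323 to 0.766 in WT replicate 2 to 0.514 to 1.06 in KO replicate 2. KO minus WT came to 0.14 log2 units (standard error 0.24, 95% interval -0.50 to 0.78, adjusted p = 0.930), so no difference was detected. The antisense RNA gene Airn overlaps Mas1 on the other strand, with an FPKM of 1.55 and 1.30 in the WT and 0.984 and 0.945 in the KO pools. Their annotated transcripts shared 0 windows of 50 bases in GENCODE M21.

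**Figure D4:**
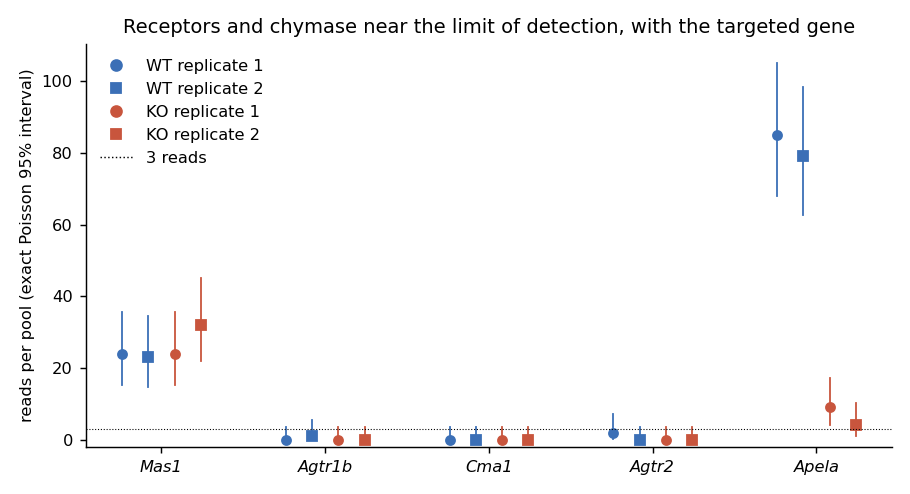
Reads per pool of the members near the limit of detection (Mas1, Agtr1b, Cma1), of Agtr2 and of the targeted gene Apela, with exact Poisson 95% intervals that cover counting error only and a dotted line at 3 reads. Mas1 has 23 to 32 reads in every pool, Agtr1b 1 read in all and Cma1 0, while Apela has 85 and 79 reads in the WT and 9 and 4 in the KO pools.

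The rest of the pathway was looked at in 16 other genes, of which 12 were tested. None passed the adjusted threshold, and 2, Mme and Ctsa, had an unadjusted p under 0.05, both lower in KO pools, against 3.03% of all genes. That p was above 0.05 for Ctsa with any pool left out (0.0668 to 0.194) and with the replicate block (0.0706), and for Mme without WT replicate 1 (0.0517) or KO replicate 1 (0.0698). The KO pools lay below the WT pools for 5 genes (Mme, Rnpep, Ctsa, Agtrap and Prep) of the 12, against 18.1% of all genes tested, and above for Nln alone, against 19.7%, and the median difference was -0.14 log2 units. Mme encodes neprilysin, which makes angiotensin-(1-7) from angiotensin I. For Mme, the WT pools gave 9.46 and 9.07 FPKM, against 6.10 and 6.90 FPKM for the KO pools. The pools of each group were close together and the groups were apart. KO minus WT came to -0.48 log2 units (standard error 0.12, adjusted p = 0.746).

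Rnpep, which encodes aminopeptidase B, gave 8.34 and 10.7 FPKM in WT, against 6.85 and 7.37 FPKM in KO pools, a KO minus WT difference of -0.39 log2 units (standard error 0.16, adjusted p = 0.786), which was -0.22 without WT replicate 2. Ctsa, which encodes cathepsin A, gave 64.5 and 68.6 FPKM in WT, against 49.5 and 54.4 FPKM in KO pools, a KO minus WT difference of -0.36 log2 units (standard error 0.12, adjusted p = 0.785). Agtrap encodes a protein that promotes internalization of the type 1 receptor, and it was lower in both KO pools, as Agtr1a was. For Agtrap, the WT pools gave 28.4 and 28.8 FPKM, against 24.02 and 23.2 FPKM for the KO pools, a difference of -0.27 log2 units (standard error 0.11, adjusted p = 0.785). Atp6ap2, the (pro)renin receptor and an accessory protein of the proton pump, gave 43.5 and 38.3 FPKM in WT, against 39.0 and 40.8 FPKM in KO pools, and its groups overlapped. The 4 genes that were not tested, Agtr2, Mrgprd, Ctsg and Mcpt4, had at most 2 reads in any pool.

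Downstream of the receptor, 13 genes of type 1 receptor signalling and of the mineralocorticoid response were tested and none passed the adjusted or unadjusted threshold. The groups did not overlap for 5 of the 13, close to the 37.8% of all genes tested, with Gna11 and Gnaq higher and Rgs4, Rgs5 and Hsd11b2 lower in KO pools, and the median difference was -0.050 log2 units. The regulators of G protein signalling Rgs4 and Rgs5, which are expressed in pericytes and vascular smooth muscle and damp receptor signals, were among those lower. Rgs5 also stood in the list of mesangial and pericyte markers, so it was counted in both lists. Rgs4 gave 0.844 and 1.14 FPKM in WT, against 0.791 and 0.358 FPKM in KO pools, and Rgs5 gave 8.21 and 10.04 FPKM in WT, against 6.31 and 7.88 FPKM in KO pools. Gna11, which encodes a G protein subunit that the receptor couples to, was higher in the KO pools, at 28.8 and 27.3 FPKM in WT, against 34.1 and 32.3 FPKM in KO pools. Their adjusted p-values were 0.801, 0.797 and 0.797 (limma). Rgs4 was at -0.50 log2 units, from -0.20 without KO replicate 2 to -0.79 without KO replicate 1. With voom weights on recovered reads it was -0.87. Rgs5 was at -0.34, from -0.19 without KO replicate 1 to -0.49 without KO replicate 2.

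Of 11 genes known to control renin cells, 9 were tested. None passed the adjusted threshold, and Vdr and Nr1h3 had an unadjusted p under 0.05, higher and lower in KO pools respectively, against 3.29% and 3.03% of all genes. That p was above 0.05 for Vdr with no filter (0.0599), quantile normalization (0.0585) or no trend (0.0628) and without WT replicate 2 (0.184) or KO replicate 1 (0.206), and for Nr1h3 without WT replicate 1 (0.0544) or KO replicate 1 (0.0801). The groups did not overlap for 4 of the 9, close to the 37.8% of all genes tested, with Vdr and Pde3b higher and Nr1h3 and Adrb1 lower in KO pools, and the median difference was 0.022 log2 units. Vdr encodes the vitamin D receptor, which is known to repress renin transcription and is also abundant in tubules. For Vdr, the WT pools gave 42.9 and 31.3 FPKM, against 62.8 and 48.4 FPKM for the KO pools. WT replicate 2 was the lowest and KO replicate 1 the highest, the same order of the 4 pools as for Ren1. KO minus WT came to 0.58 log2 units (standard error 0.22, adjusted p = 0.785), from 0.36 without WT replicate 2 to 0.81 without WT replicate 1.

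Nr1h3, which encodes the liver X receptor alpha, known to bind the renin promoter, gave 16.4 and 15.99 FPKM in WT replicates 1 and 2, against 11.5 and 12.5 FPKM in KO replicates 1 and 2, a KO minus WT difference of -0.42 log2 units (standard error 0.11, adjusted p = 0.757). Pde3b, a cyclic AMP phosphodiesterase, gave 3.39 and 3.57 FPKM in WT, against 4.39 and 4.16 FPKM in KO pools, a KO minus WT difference of 0.26 log2 units (standard error 0.12, adjusted p = 0.797). Ptgs2 and Nos1, enzymes of the macula densa that promote renin release, were under the filter, with 24 to 39 and 21 to 31 reads per pool.

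Leaving out single pools moved the members to different extents. The direction of 6 of the 7 tested members held whichever of the 4 pools was left out, and that of Agt did not. For Ren1, Enpep and Agtr1a this was fixed in advance, since pools that do not overlap cannot change direction when a single pool is left out. Ren1 kept values from 0.31 to 1.07, Enpep from -0.38 to -0.15, Agtr1a from -0.38 to -0.22, Ace from -0.34 to -0.053, Anpep from 0.047 to 0.48 and Mas1 from 0.011 to 0.27, each as a log2 fold change.

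**Figure D5:**
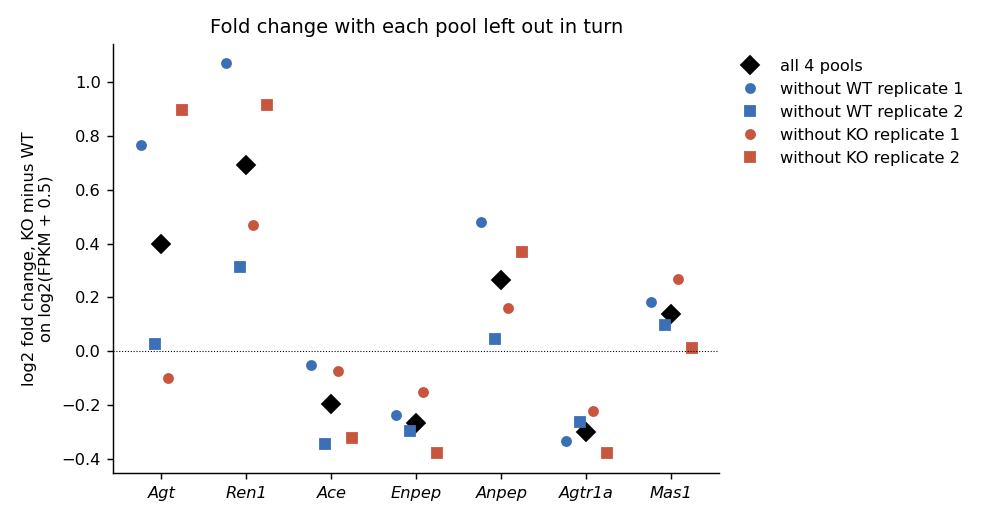
Log2 fold change (KO minus WT, on the log2(FPKM + 0.5) scale) of the 7 tested members with all 4 pools (black diamonds) and without each single pool (coloured points). Agt ranges from -0.10 without KO replicate 1 to 0.90 without KO replicate 2, and Agtr1a from -0.38 to -0.22.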

How the data were processed

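Whole-kidney poly(A) RNA of 4 pools was sequenced. The values are FPKM, fragments scaled by gene length and library total by the authors, and 1 table of them was deposited. The submitters' processing notes name HISAT2 2.0.5 and the builds mm10 and GRCm38.p6, while the counting tool is not given in the sources used here. The gene positions of 9 of 9 members equalled those of GENCODE M21 (GRCm38). Multiplied by gene length, 100% of the nonzero values came out as whole reads within 0.01 of a read after division by 1 constant per library, and these reads gave the depth and the Poisson intervals. Log2(FPKM + 0.5) of genes averaging 0.5 FPKM or more was tested with limma 3.58.1 in R 4.3.3 (trend, two-sided, no covariates, Benjamini-Hochberg over 15414 genes, 2.62 prior degrees of freedom). The test was also run on simulated data, and the outcome of that run is not given here. An adjusted p under 0.05 with any fold change was the threshold. Fold changes on this scale understate those of low genes. The main test was not one for counts, since the deposited values are FPKM, and recovered reads entered 1 alternative (voom).

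The members and lists were chosen with earlier results of these data known. Named were the 9 members, Apela, Mme, Agtr2, Agtrap and Atp6ap2, and, in each of 3 lists (other pathway genes, receptor signalling and mineralocorticoid genes, renin-cell control genes), the 3 genes with the largest change without overlap of the pools. Other genes are named for counts of 5 or fewer or as markers, after their values were seen. Of 11 lists of markers, neutrophil genes had a summed FPKM of 9.75 and 20.7 in WT and 10.6 and 22.0 in KO pools, and the others are given beside the members. The choices varied were the pseudocount (0.1 or 1), the filter (none, or a mean of 1 FPKM), the scaling (quantile normalization), the trend (none), a replicate block, voom weights on recovered reads, and each pool left out. Python 3.11.15, numpy 2.4.6, scipy 1.17.1 and pandas 2.3.3 were used. Protein sequences were not used here, and 2 genes first placed in the lists were taken out and are not reported.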

Additional observations from a re-analysis of the deposited data

How the results depend on the processing

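The number of genes with an adjusted p under 0.05 was 0 under all alternatives run (limma, Benjamini-Hochberg), while 690 to 1726 genes, against 974, had an unadjusted p under 0.05. With each pool left out in turn it was 0 in every case, where the lone pool of a group is assumed to vary like the other group's pools. For 19 named genes, 224 of 226 values kept their direction and their side of the threshold. Much of this was fixed by construction and is no measure of robustness. With 0 genes past the threshold in every setting, no value could change side. Genes whose pools do not overlap, for which some of these genes were picked, cannot change direction when a single pool is left out. The log2 fold change of Agt became -0.10 without KO replicate 1 (range -0.10 to 0.90), and that of Atp6ap2 became 0.058 without WT replicate 1 (range -0.12 to 0.058, against -0.032); the cause was not tested. The adjusted p of Ren1 ranged from 0.354 to 0.994. No member other than Agt changed direction. Unadjusted p-values of members under 0.05 were those of Ren1 with the replicate block (0.0138) and without WT replicate 1 (0.0150), of Agtr1a with no filter (0.0424) and with quantile normalization (0.04999), and of Enpep with quantile normalization (0.0489). Among the other named genes, Agtrap passed it with no filter (0.0261) and quantile normalization (0.0371) and Rnpep with voom (0.0410) and without WT replicate 1 (0.0222), and Ctsa missed it with no trend (0.050001).

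The pools share replicate numbers only, and the deviations of same-numbered pools had a correlation of -0.0017 across 15414 genes. With the replicate block the number of genes past the threshold was 0, while 932 had an unadjusted p under 0.05. Quantile normalization moved the log2 fold change of Ren1 to 0.62 and of Agt to 0.32. For Mas1 it was 0.14 in the main fit, 0.097 with a pseudocount of 1 and 0.25 with voom weights. The filters, the trend and the block cannot by construction move a log2 fold change. At 23 to 32 reads per pool for Mas1, and at most 1 for Agtr1b and Cma1, counting error is wide, and its part beside that of having 2 pools a group was not tested.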
